A study of Mus musculus with 4 samples.

Results

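The genes described here encode the mitochondrial ribosomal proteins of the mouse, taken as every protein-coding gene whose Ensembl identifier maps to a symbol starting with Mrpl or Mrps and a digit. The count table held 78 such genes among 49315, and all 78 passed the filter on low counts that left 14656 genes for testing. RNA was measured by sequencing of oligo(dT)-selected RNA in 4 libraries of bone marrow-derived macrophages (BMDMs), which are grown from marrow progenitors in medium that supplies macrophage growth factor. All 4 libraries carry the label Lyz2Cre+, a Cre recombinase knocked into the lysozyme 2 gene of myeloid cells. Polarization began 7 days after isolation and lasted 24 hours in medium without serum. The M1 cells (n = 2) received LPS at 100 ng/ml together with 50 ng/ml IFNg, and the M2 cells (n = 2) received IL-4 and IL-13, each at 10 ng/ml. C57Bl/6 cells and the EGFR inhibitor erlotinib appear in the description of the design, but no label states which of these libraries, if any, had the inhibitor. Every value below sets M2 against M1 and neither against resting cells. The age and number of the mice are not given in the labels, nor is whether the libraries of a group came from separate cultures. The p-values therefore measure the spread from library to library, possibly only a technical one.

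Mitochondria translate the few proteins encoded by their own DNA, all of them subunits of the respiratory chain and ATP synthase, on a dedicated ribosome. Its RNAs are made inside the organelle, while all its proteins are encoded in the nucleus, made in the cytosol and imported. Some of these proteins have bacterial counterparts and others are found only in mitochondria, and they are shared between a small subunit, which binds and decodes the mRNA, and a large subunit, which forms peptide bonds and feeds the new chain to the inner membrane. In macrophages, LPS and IFNg are known to turn metabolism towards glycolysis and IL-4 towards mitochondrial respiration.

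The libraries held 26806370 to 39506242 counts. Members took from 26 counts (Mrpl53 in M1 replicate 2) to 2222 counts in a library, and every member other than Mrpl53 had at least 217. Levels are counts scaled to library depth (CPM) with TMM normalization, which assumes that most genes do not change. The M1 libraries had TMM factors of 0.846 and 0.866 and the M2 libraries both had 1.17, which moves the zero of the log2 scale away from that of plain CPM. The labels matched the known polarization genes: Nos2, the inducible nitric oxide synthase, stood at 8035 and 7258 CPM in M1 and at 10.6 and 9.66 CPM in M2, and Mrc1, the mannose receptor, at 2.88 and 2.03 against 1058 and 1012 CPM. Arg1, arginase 1, was low in both groups, at 0.66 ± 0.18 CPM (SD, n = 2) in M1 and 10.8 ± 1.03 CPM (SD, n = 2) in M2. Lyz2, the locus that carries Cre, had 26.3 ± 1.44 CPM in M1 and 6.70 ± 0.26 CPM in M2 (SD, n = 2 each). All 8 macrophage markers were detected in every library, but their summed level was 8208 and 8194 CPM in M1 and 4482 and 4367 CPM in M2. Of these markers 6 were lower in M2, among them Adgre1 and Cd14, and Cd68 and Csf1r were higher. The summed level of 6 fibroblast markers was 119 and 111 CPM in M1 and 1137 and 1162 CPM in M2. Of these 6, Col1a1, Col1a2, Col3a1 and Pdgfra were higher in M2, Dcn and Lum were lower, and none was at 0. The dendritic cell markers summed to 33.4 and 34.4 CPM in M1 and 2.65 and 2.32 CPM in M2, with 3 of 4 tested markers lower and Zbtb46 higher. Neutrophil, lymphocyte and mast cell or basophil markers summed to at most 10.0 CPM in a library. The part of such differences in the results below was not tested, and in bulk RNA fewer cells of a type and less RNA per cell cannot be told apart.

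As a set, the mitochondrial ribosomal protein genes differed little between M1 and M2. Their summed level was 1865 and 1995 CPM in the M1 libraries and 1876 and 1937 CPM in the M2 libraries, so the groups overlapped. Of the 78 members, 29 were higher in M2, 19 were lower and 30 were not called (edgeR quasi-likelihood test, Benjamini-Hochberg adjusted p under 0.05). These 48 called members are 61.5% of the set, against 77.2% of all tested genes called (39.7% higher and 37.5% lower). The median log2 change, M2 minus M1, was 0.057 over the members and 0.035 over all tested genes. The sizes were small: the median absolute log2 change was 0.24 for members and 0.76 for all tested genes. A log2 change under 0.5 in either direction was found for 62 members (79.5%) and for 37.3% of tested genes, and a change over 1 for 4 members (5.13%) and for 41.0% of tested genes. The counts of calls depended on single libraries: without M2 replicate 2, 18 members were higher (35.2% of tested genes), and without M2 replicate 1, 11 were lower (33.0% of tested genes). DESeq2 called 16 members higher and 15 lower (33.9% and 34.2% of tested genes). The libraries of the groups did not overlap for 67 members (85.9%), against 88.5% of all tested genes.

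**Figure D1:**
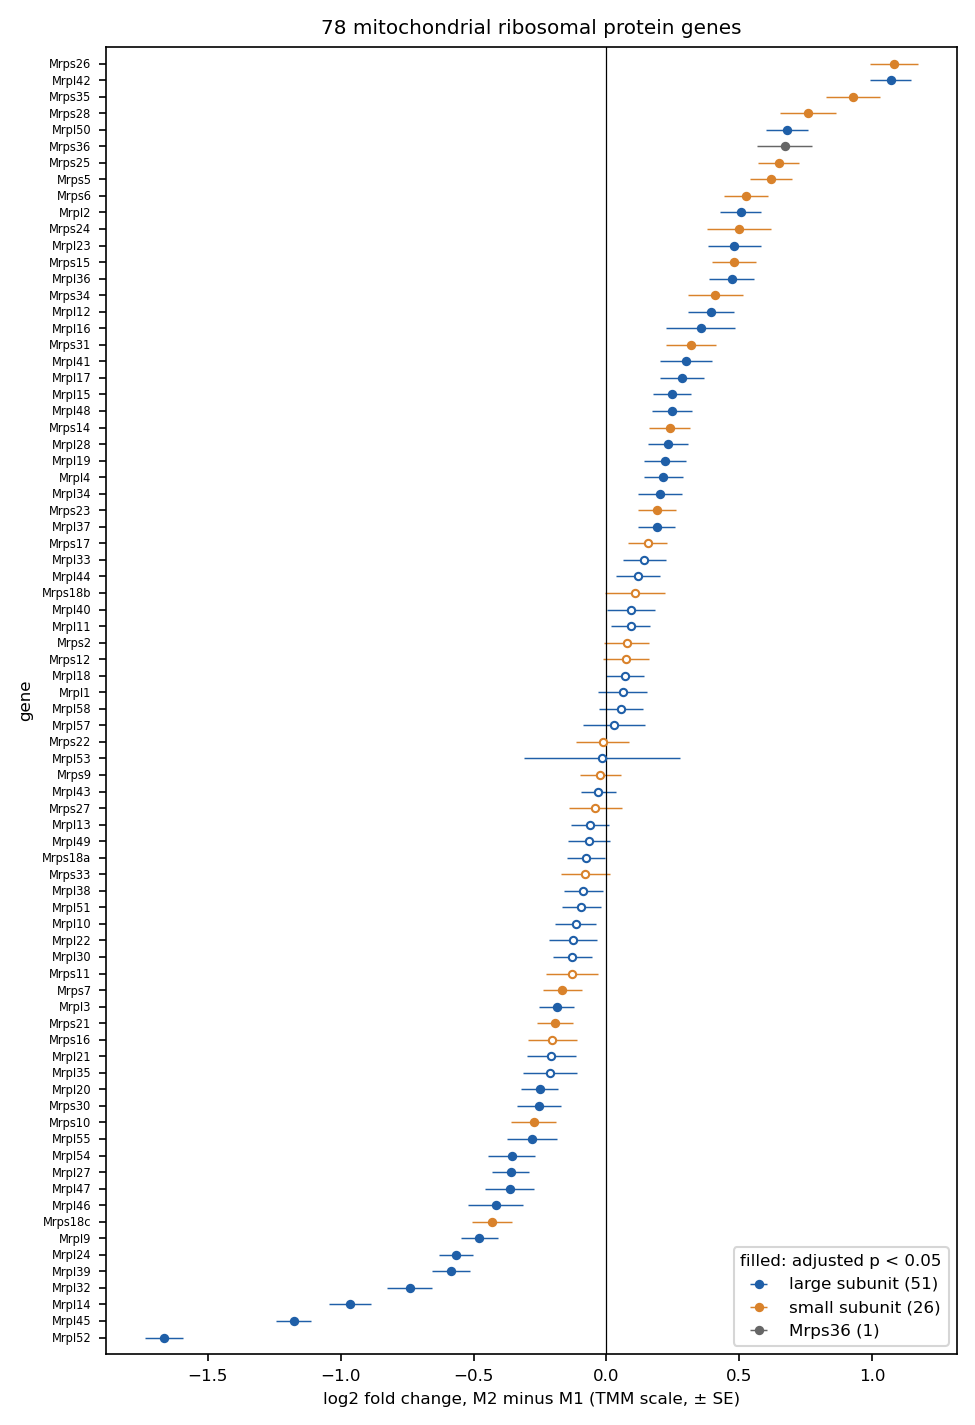
Log2 fold change (x axis, M2 minus M1, TMM scale) with its standard error for each of the 78 genes (y axis), filled where the adjusted p is under 0.05. Most points lie within 0.5 of zero, Mrpl52 (-1.67) and Mrpl45 (-1.18) stand apart on the left and Mrps26 (1.08) and Mrpl42 (1.07) end the right side, and the zero of the axis moves with the scaling.

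The balance of rises and falls in the set depended on how the libraries were scaled, while the differences between members did not. With RLE scaling 28 members were higher and 22 lower, beside 38.7% and 38.6% of tested genes. With upper-quartile scaling 41 were higher and 9 lower (47.6% and 30.7% of tested genes), and with total-count scaling 62 and 4 (58.5% and 22.8%). The median of all tested genes moved in parallel, from 0.035 with TMM to 0.0091, 0.22 and 0.48. Tested against a log2 change of 0.5 with glmTreat, 8 members were higher and 4 lower, beside 27.7% and 23.7% of tested genes. As a share of all counts the set rose from 0.158% and 0.173% in M1 to 0.219% and 0.226% in M2. A scaling multiplies all genes of a library by the same factor, so the members shift together by construction. Relative to the median of the set, no member moved by more than 0.0018 on the log2 scale between scalings. Under all 4 scalings the same 28 members were called higher and 4 were called lower (Mrpl52, Mrpl45, Mrpl14 and Mrpl32), and the calls of the other 46 depended on the scaling. The share of all tested genes called alike under all 4 scalings was not computed, so these counts do not set the members apart. Of the 19 members that fell with TMM, 7 (Mrpl52, Mrpl45, Mrpl14, Mrpl32, Mrpl39, Mrpl24 and Mrpl9) still had a negative change with total-count scaling, and the other 12 a positive one. Statements of a rise or fall below refer to TMM.

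Calls were also lost when a library was left out. That leaves 1 library in its group, so a call can be lost with little change in size. Mrpl48, at 0.25 with all libraries, lost its call although its log2 change ran only from 0.24 to 0.26. The share of all called genes that lose a call in this way was not computed, so the losses do not set the members apart. Among the 48 called members, some lost their call without at least 1 of the libraries. These were Mrpl4, Mrpl15, Mrpl16, Mrpl19, Mrpl28, Mrpl34, Mrpl37, Mrpl41, Mrpl48, Mrps14 and Mrps23 among the rises, and Mrpl3, Mrpl20, Mrpl47, Mrpl55, Mrps7, Mrps10, Mrps21 and Mrps30 among the falls. Mrpl16 was the least even, with 11.9 and 16.6 CPM in M1 and 17.5 and 18.6 CPM in M2. Its log2 change of 0.36 was 0.13 without M1 replicate 1 and 0.60 without M1 replicate 2.

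Levels within the set were spread widely, and are compared here per kilobase of the principal transcript (RPKM). The median member had 14.8 and 16.6 RPKM in M1 and 15.9 and 16.3 RPKM in M2. Mrpl52 had the highest mean level, 91.3 RPKM, followed by Mrps21 with 75.5 RPKM and Mrpl20 with 58.9 RPKM. That order held in M1 only: Mrpl52 had 134 and 144 RPKM in M1 and 42.8 and 44.5 RPKM in M2, where Mrps21 was the highest with 68.4 and 72.4 RPKM. Mrpl20, in the large subunit, had 61.5 and 66.7 RPKM in M1 and 52.3 and 55.2 RPKM in M2, and in M2 it overlapped with Mrpl42, at 53.2 and 55.8 RPKM, and with Mrpl33, at 53.6 and 53.4 RPKM. At the low end stood Mrpl53, a stalk-region protein gene, with a mean of 1.59 RPKM. Of its 790 exon bases up to 710 are shared with neighbouring genes, a base shared with several of them being counted for each. Mrps35, a mitochondria-specific small-subunit protein gene, had 1.89 and 2.12 RPKM in M1 and 3.86 and 3.76 RPKM in M2. The distribution of levels was narrower in M2, where the standard deviation of log2 CPM over the 78 members was 0.68 and 0.74, than in M1 with 0.81 and 0.80.

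The small and large subunits differed in their balance of rises and falls, though no test compared them. Of 26 small-subunit genes 12 rose and 4 fell, with a median log2 change of 0.13, and of 51 large-subunit genes 16 rose and 15 fell, with a median of -0.030. Of all tested genes 39.7% rose and 37.5% fell. The summed level of the small subunit was 504 and 549 CPM in M1 and 587 and 600 CPM in M2. The summed level of the large subunit was 1351 and 1435 CPM in M1 and 1274 and 1319 CPM in M2. Both M2 libraries were above both M1 libraries for the small subunit and below both for the large subunit. Much of the large-subunit difference lay in Mrpl52 (56.0 and 60.2 CPM in M1, 17.9 and 18.6 CPM in M2) and Mrpl45 (60.4 and 63.9 against 27.8 and 27.1 CPM). Without these genes the large-subunit sums of the groups overlap. The ratio of the sums, which no scaling can change, was 0.373 and 0.382 in M1 and 0.461 and 0.455 in M2, a difference larger than the gap between libraries of a group. With 2 libraries a group, no test of this ratio was made. Under total-count scaling both subunits leaned to M2, as did all tested genes (58.5% higher and 22.8% lower). The counts were 24 higher and 0 lower for the small subunit and 37 higher and 4 lower for the large subunit. Their median log2 changes were 0.58 and 0.42, against 0.48 for all tested genes.

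**Figure D2:**
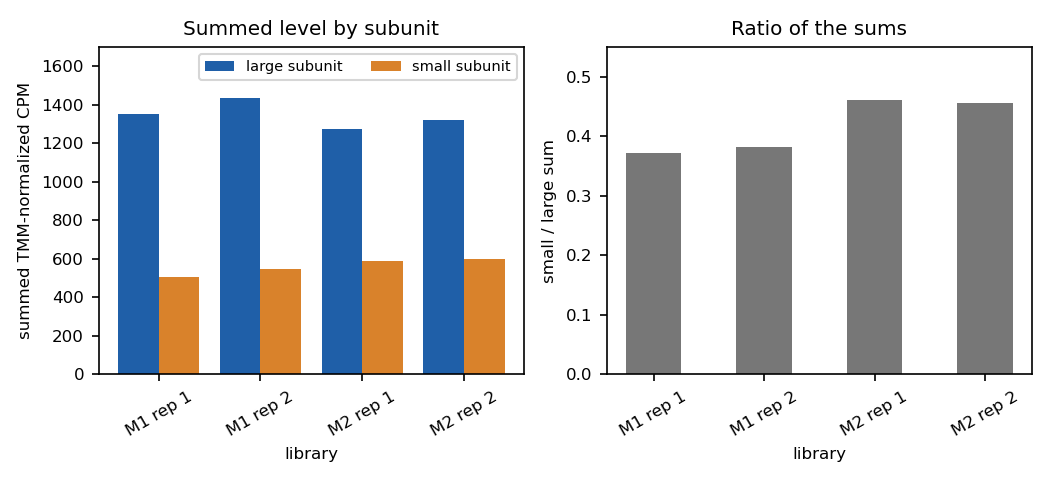
Left, summed TMM-normalized CPM of the 51 large-subunit and 26 small-subunit genes in each library; right, the small-subunit sum divided by the large-subunit sum. The ratio is 0.373 and 0.382 in the M1 libraries and 0.461 and 0.455 in the M2 libraries.

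Within the small subunit, the proteins found only in mitochondria had rises but no falls. Of these 10 genes 6 rose (Mrps26, Mrps35, Mrps25, Mrps34, Mrps31 and Mrps23) and 0 fell, with a median log2 change of 0.26. For comparison with this and the next classes, 39.7% of all tested genes rose and 37.5% fell with TMM. Mrps25 and Mrps34 share many exon bases with other genes, and Mrps23 lost its call with some libraries left out. Among the 16 small-subunit genes with a bacterial counterpart, 6 rose and 4 fell, with a median of 0.075. The difference between these classes was not tested, and with total-count scaling neither held a fall, with 10 of 10 and 14 of 16 genes higher (58.5% of tested genes higher and 22.8% lower). In the large subunit, 11 of 30 genes with a bacterial counterpart rose and 9 fell, with a median of -0.00088, and 5 of 21 mitochondria-specific genes rose and 6 fell, with a median of -0.030. With total-count scaling these counts were 22 and 2, and 15 and 2. That last class held both the strongest falls, Mrpl52 and Mrpl45, and the rise of Mrpl42.

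Among large-subunit genes, Mrpl52 fell the most. It encodes a mitochondria-specific protein of the central protuberance, the part of the large subunit that faces the head of the small subunit, and lies at chr14:54426909-54429756 (GRCm38, plus strand). Its level was 56.0 and 60.2 CPM in M1 and 17.9 and 18.6 CPM in M2. The fitted M1 level was 3.17-fold the M2 level and the groups were far apart (log2 change -1.67 ± 0.072 SE, adjusted p = 9.3e-12). Over all 14 alternative analyses its log2 change stayed between -1.72 and -1.22. The other 6 members of the central protuberance did not follow it: Mrpl48 rose by 0.25 (not called without either M2 library, at 0.26 each time), Mrpl46 fell by 0.42 on the log2 scale, and Mrpl18, Mrpl38, Mrpl40 and Mrpl58 were not called. Mrpl58 is a peptidyl-tRNA hydrolase built into the ribosome, with 17.7 and 18.2 CPM in M1 and 18.7 and 18.6 CPM in M2.

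Mrpl45, which lies at the exit of the polypeptide tunnel and tethers the ribosome to the inner membrane, had 60.4 and 63.9 CPM in M1 and 27.8 and 27.1 CPM in M2. Both M1 libraries were over 2-fold above both M2 libraries (log2 change -1.18 ± 0.067 SE, adjusted p = 2.6e-10). The gene lies at chr11:97315716-97329920 (GRCm38, plus strand) and shares no exon base with another gene. Of the 6 genes of the exit region 3 fell and 2 rose. Mrpl24 had 63.4 and 67.0 CPM in M1 and 44.2 and 43.9 CPM in M2 (-0.57 ± 0.063 SE), and Mrpl47 fell by 0.36 on the log2 scale (-0.32 and not called without M2 replicate 1). Mrpl23 and Mrpl17, at the same rim, rose by 0.48 and 0.28 on the log2 scale, Mrpl17 by 0.17 without M1 replicate 1, and Mrpl22 was not called. Under total-count scaling the change of Mrpl24 was -0.12 and no longer called, with an adjusted p of 0.10.

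The 250 bases before the annotated start of these genes are shown because both fell strongly with no other gene sharing their exons. They are given 5′ to 3′ on the gene's strand from RefSeq's promoter table (GRCm38.p6), in lower case, with matches to motifs of known regulators of mitochondrial genes in capitals. For Mrpl52 (chr14:54426659-54426908) the capitals are the ETS motif CCGGAAG on the opposite strand, and for Mrpl45 (chr11:97315466-97315715) they are matches to the NRF1 motif (GCGCA, then any base, then GCGC).
Mrpl52: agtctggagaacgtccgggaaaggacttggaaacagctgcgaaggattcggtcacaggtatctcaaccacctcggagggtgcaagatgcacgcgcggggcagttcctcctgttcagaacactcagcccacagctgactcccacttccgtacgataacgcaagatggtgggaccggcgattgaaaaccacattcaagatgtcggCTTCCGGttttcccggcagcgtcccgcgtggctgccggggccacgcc
Mrpl45: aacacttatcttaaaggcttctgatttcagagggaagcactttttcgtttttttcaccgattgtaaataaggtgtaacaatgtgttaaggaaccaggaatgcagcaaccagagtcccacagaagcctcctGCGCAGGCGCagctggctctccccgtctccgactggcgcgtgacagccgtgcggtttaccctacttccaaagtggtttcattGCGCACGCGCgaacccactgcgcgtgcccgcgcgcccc
The Mrpl45 window was the only member window with 2 NRF1 matches. A match describes the letters and shows no binding.

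Mrpl14, a conserved protein of the face where the subunits join, had 37.5 and 42.3 CPM in M1 and 19.7 and 21.0 CPM in M2. Its groups did not overlap, the fitted M1 level was 1.95-fold the M2 level, and 106 of its 949 exon bases are shared with Tmem63b (log2 change -0.96 ± 0.080 SE, adjusted p = 2.6e-08). Mrpl32, whose precursor is cleaved by a protease of the inner membrane before the protein joins the ribosome, had 23.9 and 24.4 CPM in M1 and 13.6 and 15.1 CPM in M2. That is a log2 change of -0.74 ± 0.086 SE with an adjusted p of 1.3e-06. Mrpl39 had 33.7 and 34.6 CPM in M1 and 22.4 and 23.1 CPM in M2. Mrpl9 had 47.3 and 46.5 CPM in M1 and 32.1 and 35.1 CPM in M2. Both were lower in both M2 libraries, with log2 changes of -0.59 ± 0.072 SE and -0.48 ± 0.070 SE. Neither call held under total-count scaling, where they stood at -0.14 and -0.030.

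The rises of the large subunit were led by Mrpl42, a mitochondria-specific protein gene at chr10:95480805-95501940 (GRCm38, minus strand). Its level was 17.1 and 17.6 CPM in M1 and 35.4 and 37.1 CPM in M2. The fitted M2 level was 2.10-fold the M1 level, with no overlap (log2 change 1.07 ± 0.076 SE, adjusted p = 4.2e-09). Mrpl50, also specific to mitochondria, had 18.4 and 20.2 CPM in M1 and 31.7 and 30.1 CPM in M2 (0.68 ± 0.080 SE, adjusted p = 1.5e-06). These calls held in all 14 alternatives. Around the peptidyl transferase centre, where peptide bonds are made, all 5 genes were called, against 77.2% of all tested genes. They went in both directions: Mrpl2, Mrpl16 and Mrpl4 rose by 0.50, 0.36 and 0.21 on the log2 scale, and Mrpl27 and Mrpl3 fell by 0.36 and 0.19. With a library left out, Mrpl16 was at 0.13 (without M1 replicate 1) and 0.32 (without M2 replicate 2), and Mrpl4 at 0.16 (without M2 replicate 2). Mrpl3 was at -0.14 and -0.20 without M2 replicate 1 and replicate 2. None of these changes was called, with 1 library left in a group. In the stalk region, which recruits elongation factors, Mrpl12 had 32.8 and 40.7 CPM in M1 and 48.1 and 48.2 CPM in M2 (0.39 ± 0.088 SE, adjusted p = 0.0013), a change of 0.24 without M1 replicate 1. Mrpl54 fell by 0.36 on the log2 scale, or by 0.23 without M1 replicate 2, and Mrpl10, Mrpl11 and Mrpl53 were not called. The neighbourhoods of the large subunit thus each held rises and falls. Of the smaller falls in these regions, those of Mrpl46, Mrpl47, Mrpl27, Mrpl3 and Mrpl54 turned into positive changes of 0.030, 0.085, 0.088, 0.26 and 0.091 with total-count scaling, of which only Mrpl3 was called.

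In the small subunit the largest rise was that of Mrps26, a mitochondria-specific protein gene at chr2:130563742-130568695 (GRCm38, plus strand). It had 11.7 and 13.3 CPM in M1 and 25.5 and 27.4 CPM in M2. The fitted M2 level was 2.12-fold the M1 level with no overlap (log2 change 1.08 ± 0.091 SE, adjusted p = 3.0e-08). Mrps35 had the lowest mean level per length over the 4 libraries apart from Mrpl53, although in M2 Mrpl47 lay below it with 3.45 and 3.61 RPKM. Mrps35 had 7.86 and 8.83 CPM in M1 and 16.1 and 15.6 CPM in M2. That is a 1.90-fold higher level in M2 (0.93 ± 0.10 SE, adjusted p = 6.6e-07). Mrps28, the counterpart of bacterial S1, had 9.44 and 11.5 CPM in M1 and 18.1 and 17.2 CPM in M2, a log2 change of 0.76 ± 0.10 SE. All 3 genes were higher in both M2 libraries and kept their calls in all 14 alternatives.

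Mrps5, the counterpart of bacterial S5, had 17.8 and 17.5 CPM in M1 and 26.5 and 27.6 CPM in M2 (0.62 ± 0.078 SE). Mrps25 had 17.9 and 18.3 CPM in M1 and 27.7 and 29.0 CPM in M2 (0.65 ± 0.078 SE). Of the 6576 exon bases of Mrps25, 4590 are shared with Nr2c2. Mrps34 shares up to all of its 2064 exon bases with neighbouring genes, a base shared with several of them being counted for each. The library kit does not mark strand, so reads of such pairs cannot be told apart, and the rises of Mrps25 and Mrps34 (0.41 ± 0.10 SE) are uncertain for that reason. Over the set, 33 members share exon bases with another gene, of which 9 rose and 10 fell, and 45 share none, of which 20 rose and 9 fell. Of all tested genes 39.7% rose and 37.5% fell. With total-count scaling these counts were 25 and 1, and 37 and 3 (58.5% and 22.8% of tested genes). Processed pseudogenes named after 3 members, 5 in all, held 0 to 19 counts in a library.

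**Figure D3:**
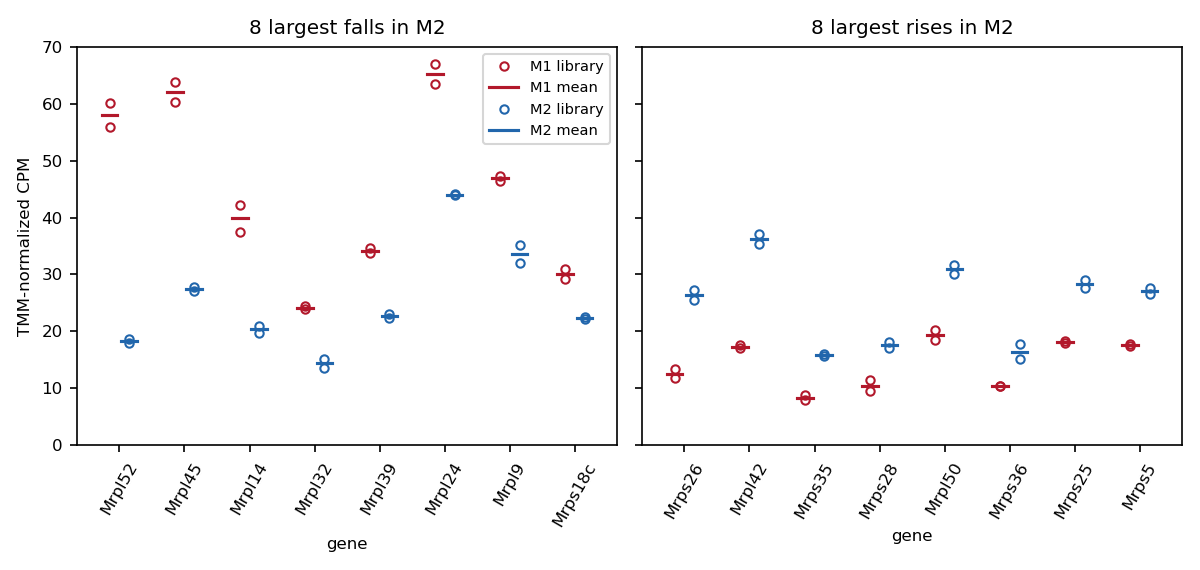
TMM-normalized CPM (y axis) in each of the 4 libraries, as open circles with group means as bars, for the 8 members with the largest fall (left) and the 8 with the largest rise (right) in M2. These 16 genes were picked for the size of their change, so the separation of their M1 and M2 libraries follows from that choice. Values run from Mrpl52 (56.0 and 60.2 against 17.9 and 18.6) to Mrps5 (17.8 and 17.5 against 26.5 and 27.6). The libraries of the groups did not overlap for 88.5% of all tested genes.

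The vertebrate descendants of bacterial S18 offered a comparison within a family. Mrps18c, which keeps the place of S18, had 29.2 and 31.0 CPM in M1 and 22.2 and 22.5 CPM in M2, a log2 change of -0.43 ± 0.075 SE (adjusted p = 8.9e-05) that was 0.018 and not called under total-count scaling. Mrps18b, at another site of the small subunit, had 12.5 and 16.4 CPM in M1 and 15.4 and 15.6 CPM in M2. Mrps18a, which sits in the large subunit in spite of its name, had 30.9 and 30.8 CPM in M1 and 28.9 and 29.5 CPM in M2. Of the 3 paralogues only Mrps18c was called with TMM. With total-count scaling the calls were the other way round, with Mrps18a at 0.37 and Mrps18b at 0.55 called higher, and the differences between the paralogues were not tested. Mrps21, the small-subunit gene with the highest level per length, had 39.4 and 39.2 CPM in M1 and 33.4 and 35.3 CPM in M2 (-0.19 ± 0.068 SE, adjusted p = 0.018). Its change was 0.26 under total-count scaling, also called, so its direction depends on the scaling, and the TMM call was lost without either M2 library (-0.14 and -0.22). Mrps36 carries a ribosomal name but is known as an adaptor of the 2-oxoglutarate dehydrogenase complex of the citric acid cycle. It had 10.3 and 10.5 CPM in M1 and 15.2 and 17.7 CPM in M2, a rise of 0.67 ± 0.10 SE (adjusted p = 2.8e-05).

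The stretches before the strongest rise in each subunit are shown beside those of the falls above. They are the 250 bases before Mrpl42 (chr10:95501950-95502199, minus strand) and, before Mrps26, the 147 bases of its window that no annotated exon covers (chr2:130563507-130563653).
Mrpl42: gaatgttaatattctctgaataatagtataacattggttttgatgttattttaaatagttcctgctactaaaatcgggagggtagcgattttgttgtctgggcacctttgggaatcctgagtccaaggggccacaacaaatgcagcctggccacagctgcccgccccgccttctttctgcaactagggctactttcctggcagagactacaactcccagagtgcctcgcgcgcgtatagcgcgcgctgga
Mrps26: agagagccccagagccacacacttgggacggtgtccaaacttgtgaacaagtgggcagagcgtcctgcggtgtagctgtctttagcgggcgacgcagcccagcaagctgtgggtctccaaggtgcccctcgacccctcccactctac
Neither printed stretch held a match to any of the 5 motifs searched on both strands, which says only that those letters are not in these stretches. The full 250-base window of Mrps26 held 1 match to the ETS motif, which the printed stretch leaves out.

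Windows of 250 bases before the start were found for 69 of the 78 members. The RefSeq start behind the window lay within 100 bases of the GENCODE start for 50 of them and over 2000 bases from it for 4 (Mrpl33, Mrps24, Mrpl35 and Mrpl36). The NRF1 motif occurred in 10 member windows (14.5%) and in 5.19% of the windows of all 17492 protein-coding genes. The ETS motif CCGGAAG, bound by GABPA among others, occurred in 16 member windows (23.2%) and in 9.24% of coding windows. The YY1 motif AANATGGC was in 7 member windows (10.1%) and in 3.77% of coding windows. For these motifs the share in member windows was above that of coding genes, while the E-box CACGTG, the site of MYC, was in 5 member windows (7.25%) against 6.52% and the CCAAT box CCAATNNG in 10 (14.5%) against 15.0%. In the 50 windows near the GENCODE start NRF1 occurred in 8, ETS in 13, YY1 in 4, the E-box in 3 and the CCAAT box in 9. Member windows were also richer in G and C, with a median of 58.4% against 55.2% for coding genes. Where a gene had several windows, members kept the one nearest the GENCODE start and coding genes the one of lowest coordinate. The shares and medians thus compare windows chosen in unlike ways. By response, the NRF1 motif was in 2 of 23 windows of members that rose, 5 of 18 that fell (Mrpl45, Mrpl32, Mrpl39, Mrpl9 and Mrps21) and 3 of 28 not called. The E-box was in 3 windows of members that rose, 2 that fell and 0 not called. These counts are descriptions, without a test.

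The regulators themselves moved unequally at the RNA level. Of 9 listed regulators of mitochondrial biogenesis 8 were tested, of which 1 rose and 4 fell, while with total-count scaling 6 rose and 2 fell. Of all tested genes 39.7% and 37.5% rose and fell with TMM. Myc, whose protein binds E-boxes and drives ribosome production, had 1.85 and 1.42 CPM in M1 and 46.5 and 49.1 CPM in M2 (log2 change 4.85 ± 0.12 SE). Esrra, a nuclear receptor of mitochondrial genes, had 122 and 131 CPM in M1 and 61.6 and 62.0 CPM in M2 (-1.03 ± 0.061 SE). Gabpb1, the partner of GABPA, changed by -0.82 ± 0.077 SE. Nrf1 and Yy1 were called lower with TMM, at -0.18 and -0.26, and higher with total-count scaling, at 0.26 and 0.19. The TMM call of Nrf1 was lost without M1 replicate 2 (-0.17), M2 replicate 1 (-0.16) and M2 replicate 2 (-0.18). Ppargc1a, the coactivator often named first for mitochondrial biogenesis, was not tested, with 0 to 0.10 CPM.

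Many members share their upstream region with a gene that runs the other way. For 23 members another gene starts within 1000 bases on the opposite strand, and 22 of these partners were tested. Of the 22 pairs, 7 were called in the same direction on both sides, 1 in opposite directions and 14 on at most 1 side. Among the partners 14 of 22 were called, against 77.2% of tested genes. Across the 22 pairs the changes had a Pearson r of 0.51 and a Spearman rho of 0.52, a description over genes that share libraries and, in some pairs, exon bases.

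**Figure D4:**
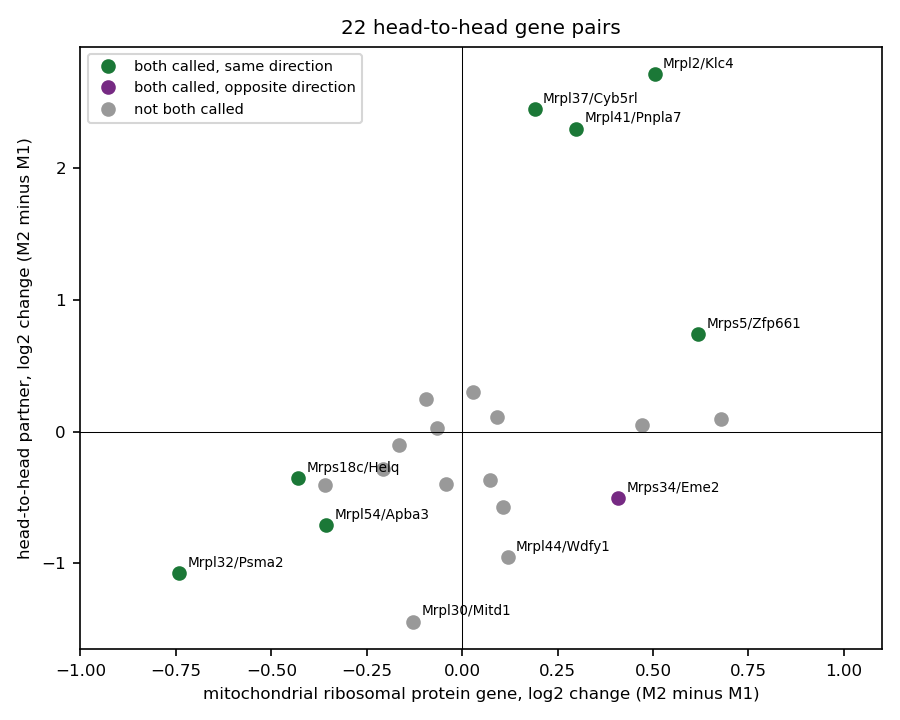
Log2 change of each of 22 mitochondrial ribosomal protein genes (x axis) against that of the gene starting within 1000 bases on the opposite strand (y axis), both M2 minus M1. The 7 pairs called in the same direction lie in the lower left and upper right, where partners such as Klc4 (2.71) differ far more than their members such as Mrpl2 (0.50).

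The pair of Mrpl32 and Psma2 fell together. Psma2, a subunit of the proteasome core, had 214 and 220 CPM in M1 and 103 and 103 CPM in M2 (log2 change -1.07), beside -0.74 for Mrpl32, and the starts lie 75 bases apart. The pair of Mrpl2 and Klc4, a kinesin light chain, rose together but by unequal amounts. Klc4 had 11.2 and 10.6 CPM in M1 and 70.1 and 72.2 CPM in M2 (2.71), while Mrpl2 had 23.5 and 26.1 CPM in M1 and 33.9 and 36.3 CPM in M2 (0.50 ± 0.078 SE). The M2 libraries were above the M1 libraries for both genes. The other pairs called in the same direction were Mrps18c with Helq, Mrpl54 with Apba3, Mrpl37 with Cyb5rl, Mrpl41 with Pnpla7 and Mrps5 with Zfp661. With total-count scaling Mrps18c, Helq and Mrpl54 turned to 0.018, 0.096 and 0.091 and were not called. Without M2 replicate 2, Mrpl37 (0.19), Mrpl41 (0.29) and Helq (-0.32) were not called, nor were Mrpl37 (0.22) and Helq (-0.35) without M2 replicate 1, or Mrpl41 (0.17) and Helq (-0.30) without M1 replicate 1. Mrps34 and Eme2 were called in opposite directions, at 0.41 and -0.50. A shared start region did not go with a shared change in every case: Mitd1, starting 66 bases from Mrpl30, changed by -1.44 while Mrpl30 had 32.4 and 32.7 CPM in M1 and 28.6 and 30.8 CPM in M2 and was not called.

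The exon-free stretches between the starts of the first pairs are printed because 2 genes read out of each in opposite directions, both with RNA that moved the same way. They are written on the strand of the ribosomal protein gene: 74 bases for Mrpl32 and Psma2 (chr13:14613166-14613239, minus strand), with a CCAAT box on the opposite strand in capitals, and 148 bases for Mrpl2 and Klc4 (chr17:46646081-46646228, plus strand), with an E-box in capitals.
Mrpl32: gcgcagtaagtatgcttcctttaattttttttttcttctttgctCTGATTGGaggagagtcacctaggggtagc
Mrpl2: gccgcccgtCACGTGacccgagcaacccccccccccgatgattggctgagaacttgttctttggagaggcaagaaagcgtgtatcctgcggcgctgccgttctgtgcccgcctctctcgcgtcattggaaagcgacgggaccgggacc
Each printed stretch ends at the annotated start of the ribosomal protein gene.

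The set was then placed beside the other genes that make or serve the mitochondrial ribosome. The counts of these lists stand against 39.7% of all tested genes higher and 37.5% lower with TMM, and 58.5% and 22.8% with total-count scaling. Of 5 proteins of this ribosome with other names, Gadd45gip1 and Ptcd3 rose by 0.38 and 0.37 on the log2 scale, while Chchd1 and Dap3 fell by 0.62 and 0.50 and Aurkaip1 was not called. Dap3, a GTP-binding protein of the small subunit, had 48.5 ± 3.47 CPM in M1 and 34.2 ± 1.53 CPM in M2 (SD, n = 2 each), unlike the 12 small-subunit genes that rose. The call of Dap3 was lost under total-count scaling, at -0.052, and that of Chchd1 too, at -0.17.

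Among 26 assembly and rRNA modification factors 10 rose and 5 fell, or 21 and 2 with total-count scaling, beside the shares of tested genes just given. Mtg1, a GTPase of large-subunit assembly, had 4.39 and 5.13 CPM in M1 and 13.1 and 12.7 CPM in M2 (1.44 ± 0.12 SE), and Mettl15, a methyltransferase of the small-subunit rRNA, changed by 1.19. Nsun4, another methyltransferase that acts in assembly, had 21.3 ± 0.97 CPM in M1 and 8.98 ± 0.065 CPM in M2 (SD, n = 2 each), a log2 change of -1.25 ± 0.092 SE, and Trub2 changed by -0.76. Factors of the same process were thus well apart in both directions. Of 16 translation factors and RNA partners 9 rose and 2 fell, or 14 and 1 with total-count scaling. Guf1, an elongation factor, had 9.06 and 9.52 CPM in M1 and 26.5 and 25.6 CPM in M2 (1.49 ± 0.089 SE). Lrpprc and Slirp, which form a complex that stabilises mitochondrial mRNAs, moved apart, with Lrpprc at 36.3 and 38.7 CPM in M1 and 80.3 and 78.3 CPM in M2 (1.08 ± 0.065 SE). Slirp had 61.5 and 58.0 CPM in M1 and 25.3 and 26.4 CPM in M2 (-1.21 ± 0.068 SE). Mtif3, an initiation factor, changed by -0.31 and was at 0.14 and not called under total-count scaling. Its call was also lost without M1 replicate 1 (-0.20), M2 replicate 1 (-0.27) or M2 replicate 2 (-0.31).

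Of 20 mitochondrial aminoacyl-tRNA synthetase genes 11 rose and 2 fell, with a median log2 change of 0.33, and 18 and 0 did so with total-count scaling (tested genes: 39.7% and 37.5%, and 58.5% and 22.8%). Mars2 and Nars2, which charge the methionine and asparagine tRNAs, rose by 1.69 and 1.61 on the log2 scale, and Lars2 and Sars2 changed by -0.40 and -0.36, at 0.049 and 0.084 under total-count scaling. Lars2 was at -0.18 without M1 replicate 1, and Sars2 at -0.30 and not called without M2 replicate 1. Of 10 genes of mitochondrial DNA maintenance and transcription, 5 rose, with Top1mt and Tfb2m at 0.72 and 0.72, and 4 fell, with Polg2 and Tefm at -0.54 and -0.40. Under total-count scaling 7 of the 10 were higher and 0 lower, and Tefm was not called without M2 replicate 2 (-0.32). Of the 13 protein-coding genes of mitochondrial DNA, whose mRNAs this ribosome translates, 3 rose and 3 fell. Among these mt-Nd2 and mt-Nd3 rose by 0.57 and 0.59 on the log2 scale, and mt-Co1 and mt-Nd5 changed by -0.47 and -0.34. Without M1 replicate 2 mt-Nd5 was at -0.20, and with total-count scaling 6 of the 13 were higher and 0 lower. The counts of 6 of the 13, mt-Co2 and mt-Nd3 among them, lay under 5 CPM although mt-Co1 had 6424 to 9738 CPM. Near-identical nuclear copies of mitochondrial DNA can share reads with these genes, so their counts are uncertain.

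**Figure D5:**
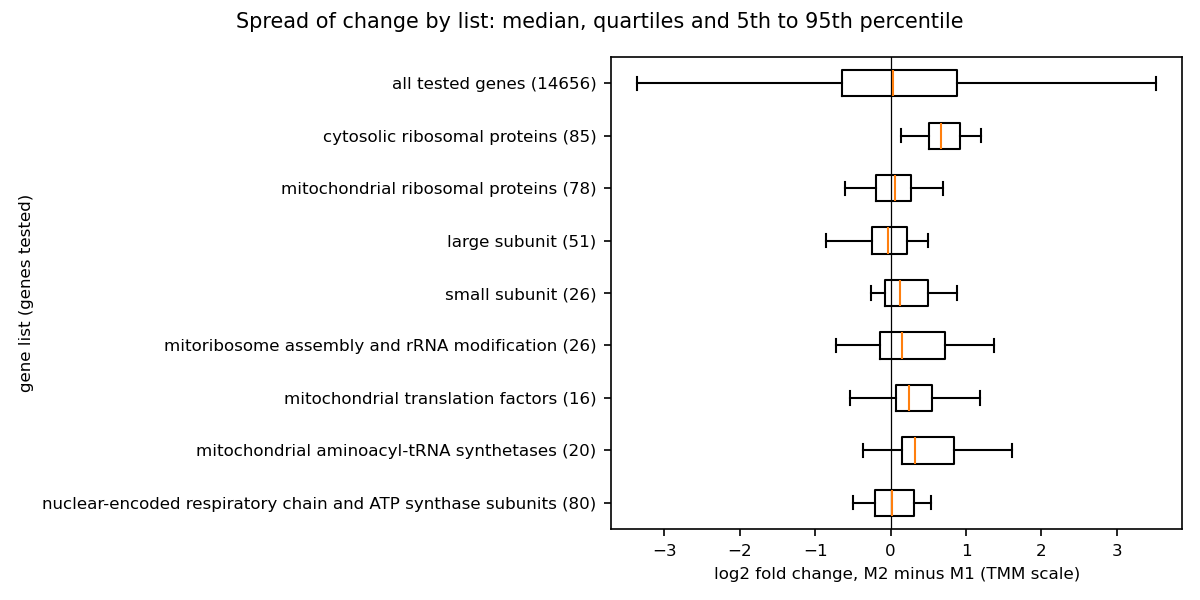
Log2 fold change (x axis, M2 minus M1, TMM scale) by gene list (y axis, genes tested in brackets); the line is the median, the box the quartiles and the whiskers the 5th and 95th percentiles. The mitochondrial ribosomal proteins (median 0.057) and the respiratory chain subunits (0.013) lie close to zero with narrow boxes, and the cytosolic ribosomal proteins (0.66) lie to the right.

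The cytosolic ribosome, which makes the mitochondrial ribosomal proteins, differed more. Of its 85 tested genes 77 rose and 2 fell, with a median log2 change of 0.66, and 76 rose and 2 fell with RLE scaling, 80 and 2 with upper-quartile scaling and 83 and 0 with total-count scaling. Rpl10a had 97.6 and 119 CPM in M1 and 329 and 349 CPM in M2 (1.65 ± 0.087 SE), and Rpl39l, a low-level paralogue of Rpl39, changed by 2.55. Rps24 and Rpl24 changed by -0.54 and -0.46. No member of the mitochondrial set had a rise of the size of Rpl10a. The 80 tested nuclear genes of the respiratory chain and ATP synthase, in contrast, were close to the mitochondrial ribosomal proteins, with 26 higher, 26 lower and a median of 0.013. As for the members, the balance moved with the scaling, to 41 higher and 11 lower with upper-quartile and 67 and 3 with total-count scaling, beside 47.6% and 30.7%, and 58.5% and 22.8%, of tested genes. Ndufs4, a subunit of complex I, had 81.5 and 89.6 CPM in M1 and 27.9 and 29.5 CPM in M2 (-1.57 ± 0.070 SE), and Cox5a of complex IV changed by -0.81. Cox6a2 and Cox7a1, known from muscle, rose from levels near 1 CPM by 2.20 and 1.44 on the log2 scale, the latter by 0.90 without M1 replicate 1.

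Properties of the genes showed little relation to their change. Over the 78 members the Spearman rho with the log2 change was 0.083 for transcript length, -0.011 for GC content and -0.24 for mean level, and over the 12639 tested genes with a transcript length it was 0.039, 0.071 and -0.29. All these points share the same 4 libraries. The members lie on 17 chromosomes, with 11 on chromosome 11 and 8 on chromosome 17. Replicates differed in the set as a whole: replicate 2 of M1 exceeded replicate 1 in 62 of 78 members, with a median difference of 0.095 on the log2 scale, and replicate 2 of M2 exceeded replicate 1 in 57, with a median of 0.045. The median over all tested genes was -0.012 and 0.0017 for these pairs of libraries. The gap between the M1 replicates was thus larger than the set's median difference between M1 and M2, 0.057, and far below the changes of Mrpl52, Mrpl45, Mrps26 and Mrpl42.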

How the data were processed

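Per the labels' protocols, RNA was selected with oligo(dT), prepared with a kit that does not mark strand and sequenced as paired 150-base reads. Tools named in the submitters' processing notes are STAR 2.5.2b, Trimmomatic 0.36, DESeq, DESeq2, Subread 1.5.2 and featureCounts, with the build GRCm38. Which step each did is not recorded there. The authors deposited whole-number read counts per gene for 4 libraries, not normalized; their comparison table was not used. The count table has 49315 gene identifiers, of which 49056 matched GENCODE vM21 (GRCm38), and the 259 without a symbol held at most 0.011% of a library's counts.

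Tests used edgeR 4.0.16 in R 4.3.3, after filterByExpr (at least 10 counts, 15 in total) and TMM, with the robust quasi-likelihood F test, two-sided, Benjamini-Hochberg over the 14656 tested genes, calls at an adjusted p under 0.05. The common biological coefficient of variation was 0.053. Fold changes are M2 minus M1, and the standard error (SE) is the absolute log2 change divided by the square root of F. CPM are TMM-normalized, and RPKM divide them by the length of the principal transcript. Replicate numbers follow accession order and pair nothing. Alternatives were other scalings and filters, a non-robust spread, glmTreat, limma-voom (limma 3.58.1), DESeq2 1.42.0 and each library left out. In 5 simulated sets of the 14656 genes with 200 changed, a log2 change of 0.5 was called in 67.0% of cases, 1 in 83.6% and 2 in 97.9%, and unchanged genes made up 9.5% of calls. In the data 77.2% of tested genes were called, far more than the simulated share, so these rates may not carry over.

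The members, lists and motifs were chosen with earlier results of these data known. The naming rule took the 8 called members with the largest change each way at a mean of at least 5 CPM, the 3 highest and 2 lowest members per length, up to 2 called genes each way per list at 1 CPM or more, and Nos2, Arg1, Mrc1 and Lyz2. Other members were named by class. Adgre1, Cd14, Cd68, Csf1r, Zbtb46, the fibroblast markers, the head-to-head partners (Psma2, Klc4, Helq, Apba3, Cyb5rl, Pnpla7, Zfp661, Eme2 and Mitd1), Nrf1, Yy1, Ppargc1a, mt-Co2, Aurkaip1 and Mrpl33 were named after their values were seen.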

Additional observations from a re-analysis of the deposited data

How the results depend on the processing

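Of 14 alternatives, the 3 other scalings shifted all members nearly in parallel. Under total-count scaling 8570 genes rose and 3342 fell, and 3468 fell by glmTreat beyond a log2 change of 0.5. These are 58.5%, 22.8% and 23.7% of tested genes. By glmTreat 27.7% of tested genes rose, by DESeq2 33.9% rose, and under upper-quartile scaling 30.7% fell. The member counts that follow stand against these shares. With a library left out, such shares are not given for every library, so those ranges do not set the members apart. Members that rose numbered 62 under total-count scaling, 8 by glmTreat, 16 by DESeq2 and 18 to 35 with a library left out. Members that fell numbered 9 under upper-quartile scaling, 4 under total-count scaling, 4 by glmTreat and 11 to 23 with a library left out. The members' median was 0.24 under upper-quartile scaling, 0.51 under total-count scaling and 0.12 with no filter on low counts, and ran from -0.019 (without M1 replicate 1) to 0.078 with a library left out. Scaling sets the zero of the log2 scale, and glmTreat asks for a larger change by construction; for the other differences the cause was not tested.

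Total-count scaling reversed 12 members, Mrpl3 (0.26), Mrpl20 (0.20), Mrpl27 (0.088), Mrpl46 (0.030), Mrpl47 (0.085), Mrpl54 (0.091), Mrpl55 (0.17), Mrps7 (0.28), Mrps10 (0.17), Mrps18c (0.018), Mrps21 (0.26) and Mrps30 (0.20). Other genes it reversed were Helq (0.096), Lars2 (0.049), Mtif3 (0.14), Nrf1 (0.26), Sars2 (0.084), Tefm (0.046), Yy1 (0.19) and mt-Nd5 (0.11). Mrps7 was also reversed by upper-quartile scaling (0.019). No paired analysis was possible because the labels carry no replicate numbers. Depth limited Mrpl53, with 26 to 43 counts a library and an SE of 0.29. With a library left out its group holds 1 library, which is assumed to vary like the other group's.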
